A study of Rattus norvegicus with 39 samples.

Results

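Rats returned to ad libitum feeding (AL) after caloric restriction (CR) were compared with rats that made the same return on a diet supplemented with α-lipoic acid (LA). Both groups were male BN rats that were restricted until 12 months of age, then fed freely, and sampled at 28 months. The CR>AL rats received the standard diet after the switch, and the CR>AL+LA rats received the same diet with LA at 1.5 g per kg. All pools labelled with these diets were taken, which gave 6 of the 39 pools of the study, with n = 3 pools of 2 rats in each group. RNA of the cerebral cortex was sequenced after depletion of ribosomal RNA (rRNA), and reads were counted per gene. CR>AL pools are numbered 25, 26 and 27 and CR>AL+LA pools 28, 29 and 30, and values per pool are given in that order. The other LA comparisons set the AL+LA pools against the AL pools, and the CR>CR+LA pools, with LA added from 12 months onwards, against the CR pools, all at 28 months. The study asked with these diets how LA taken during free feeding might preserve an effect of earlier restriction. A pool carries the mean of its rats, so the spread between pools is smaller than that between rats.

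LA is a sulphur-containing cofactor that is bound to the acyltransferase subunits of mitochondrial enzymes such as pyruvate dehydrogenase, where it carries acyl groups between active sites. Taken in the diet it is reduced in cells to a dithiol, acts as an antioxidant and can activate the transcription factor Nrf2, which binds antioxidant response elements. Caloric restriction is widely studied for its relation to mitochondria, oxidative stress and chromatin in the ageing brain, and gene lists for these processes were examined beside the genes with the smallest p-values.

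Reads on genes were between 2754552 (pool 30) and 4562089 (pool 26) per pool, and 37.99% to 41.2% of all reads did not align. In the AL pools, in contrast, 27.5% to 33.2% of reads did not align, so diet and library in the AL+LA versus AL comparison cannot be told apart. Counts of 2 pools within a group were further apart than counting noise allows (chi-square divided by its degrees of freedom, 2.97 to 8.06), so no pool repeated another. Pool 30 had the fewest reads and lay apart on the first principal component, with a score of 47.1 against -20.0 to -1.74 in the other pools.

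LA during refeeding was followed by a small set of expression differences in the cortex, mostly higher levels. Of 17230 genes tested, 74 were differentially expressed (DE) at an adjusted p under 0.05 (0.429%), of which 56 were higher (0.325%) and 18 lower (0.104%) in CR>AL+LA (edgeR quasi-likelihood test, Benjamini-Hochberg adjustment). Unadjusted p was under 0.05 for 1483 genes (8.61%). Most differences were moderate, with a median absolute log2 fold change (log2 FC) of 0.66 among the DE genes and only 9 above 1. The highest absolute value, 4.24, was a lower level with LA of an identifier without a name whose pools overlapped. The 3 pools of each group did not overlap for 72 of the 74 DE genes, against 2386 of all genes tested (13.8%). The calls were made on the same pools, so this adds no support to them. All log2 FCs are CR>AL+LA over CR>AL unless stated, and levels are normalised read counts (CPM, scaled for library size and composition). With all 13 diet and age groups in one fit, which share one estimate of the spread, 2 of the 74 were DE, Sdf4 and 1 identifier without a name, and 890 genes had an unadjusted p under 0.05. Without pool 27 the count was 43 and without pool 30 it was 46, of which 37 and 41 were among the 74.

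The calls of named genes differed in how far they rested on single pools. ATP8, Ccdc47, Rn28s, Sdf4, Asrgl1, Ppp1r9b, Atp5c1, Ctss and Srrm2 were DE in all 6 fits that left out 1 pool. Dcn, Ddx3x, Naca, Ndufa13 and 1 identifier of Arpp19 were DE in 5 of the 6, Nat8l, Sars and Hnrph1 in 4, and Mll2, Slc6a20 and the other identifier of Arpp19 in 3. Agap3, Osbpl1a, Anp32b and Prkcd were DE in 2, Atp1b1, Npm1, Git1, Stmn4, Ccng2, Dab2ip and Wdfy3 in 1, and Epb4.1l2 in 0. Signs did not turn in these fits.

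**Figure D1:**
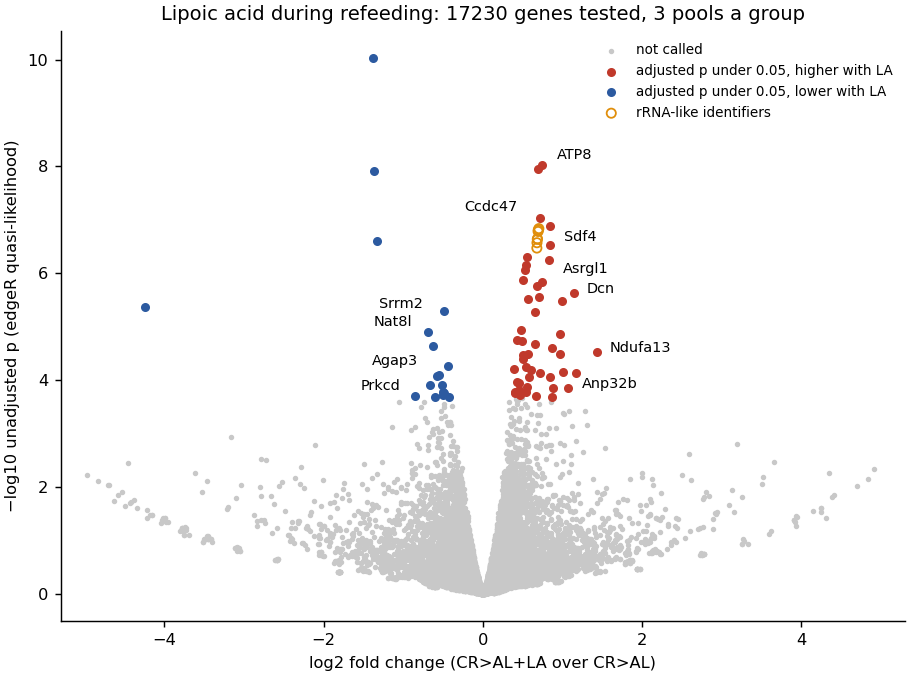
Each point is one of the 17230 genes tested, with the log2 FC of CR>AL+LA over CR>AL on the x axis and the negative log10 of the unadjusted p on the y axis. Red points are the genes called higher and blue points those called lower, and open orange circles mark the 7 rRNA-like identifiers. The 56 higher genes lie mostly below a log2 FC of 1, and the 3 lowest p-values among the 18 lower genes belong to identifiers without a name.

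A gene name was paired with 1672 of the genes tested, through the study's own lists of DE genes, which were drawn up in part from these pools. Names were available for 33 of the 74 DE identifiers, 26 higher and 7 lower, and the other 41 were counted without a name. The lower identifiers with the smallest p, ENSRNOG00000049138 and ENSRNOG00000046170, had no name. The first was at 103.4, 74.2 and 109.9 CPM in the CR>AL pools and at 40.6, 30.8 and 37.7 CPM in the CR>AL+LA pools, with a log2 FC of -1.39 ± 0.145 (SE; adjusted p = 1.62e-06, edgeR). The second fell by 1.37 ± 0.178 on the log2 scale (adjusted p = 5.29e-05, edgeR). Among unnamed identifiers that rose, ENSRNOG00000031766 went from a mean of 1138 to 1820 CPM and ENSRNOG00000006302 from 45.7 to 81.1 CPM, and neither had overlapping pools.

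ATP synthase, which makes ATP from the proton gradient of the respiratory chain, was represented among named DE genes by 1 higher subunit from each genome. ATP8, a mitochondrially encoded subunit of the membrane sector, was at 708.4, 602.3 and 545.1 CPM in the CR>AL pools and at 1097, 967.6 and 1018 CPM with LA. Every LA pool was above every CR>AL pool, and the log2 FC was 0.75 ± 0.0958 (adjusted p = 5.29e-05, edgeR). Atp5c1, the nuclear gene of the rotating gamma subunit, was at 46.3, 47.2 and 49.3 CPM without LA and at 76.3, 69.2 and 87.6 CPM with LA (log2 FC 0.71 ± 0.124, adjusted p = 0.00196, edgeR). The groups were again apart. Ndufa13, a subunit of complex I, was low in all pools, with 2.80, 6.09 and 5.39 CPM against 13.2, 12.2 and 14.1 CPM (log2 FC 1.43 ± 0.292, adjusted p = 0.0133, edgeR). ATP8 overlaps its neighbour ATP6 on the mitochondrial genome, and the counting could leave out reads in the shared stretch.

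No other matched member of the respiratory chain lists was DE, and the 41 DE identifiers without a name could not be assigned. Of the 13 mitochondrially encoded genes of a list, 3 could be matched to an identifier. All 3 had a positive log2 FC, and of these 3 only ATP8 was DE. The unmatched genes may be among the unnamed DE identifiers. COX2, a subunit of complex IV, was at 2818, 2766 and 2568 CPM without LA and at 3447, 3315 and 3428 CPM with LA, apart in all pools but with an adjusted p of 0.0656 (log2 FC 0.33, edgeR). COX2 passed the threshold with DESeq2, without a filter on low counts and without pool 26. ND3, a subunit of complex I, had a log2 FC of 0.10 ± 0.0863. The nuclear list had 28 identifiers tested, and its 1 DE member was Atp5c1. Of the 28, 20 had a negative log2 FC, and the median of the list was -0.139, against -0.000306 over all genes tested. At an unadjusted p under 0.05, 6 were lower and 1 higher, where 8.61% of all genes passed. The 28 were named through the study's lists of DE genes, some drawn up from the CR>AL pools. All genes tested are therefore not a like comparator, and no direction of the list is drawn from these values. The lowest p among the negative members belonged to Atp5i, a small subunit of ATP synthase, with 57.8, 90.96 and 63.1 CPM against 54.1, 56.6 and 48.3 CPM (log2 FC -0.41 ± 0.142, adjusted p = 0.321, edgeR). Ndufv1, Ndufb5 and Cox8a had log2 FCs of -0.33, -0.29 and -0.30, with adjusted p between 0.396 and 0.443 (edgeR).

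Several DE genes that stand on no list encode proteins of the secretory pathway, of translation or of the nucleus. Ccdc47, which takes part in inserting multipass proteins into the membrane of the endoplasmic reticulum (ER) and in ER calcium handling, was at 92.6, 101.2 and 85.5 CPM in the CR>AL pools and at 150.4, 158.2 and 147.3 CPM with LA. The log2 FC was 0.72 ± 0.104 (adjusted p = 0.000316, edgeR), a 1.65-fold difference. Sdf4, a calcium-binding protein of the Golgi lumen, was at 33.9, 36.8 and 38.5 CPM and at 64.2, 62.8 and 67.5 CPM (log2 FC 0.84 ± 0.129, adjusted p = 0.000362, edgeR). Naca, a subunit of the complex that binds nascent chains at the ribosome, rose from a mean of 62.1 ± 8.47 to 97.3 ± 7.17 CPM (SD, n = 3), and Sars, the seryl-tRNA synthetase, from 39.9 ± 3.87 to 62.1 ± 4.92 CPM. Their adjusted p-values were 0.00319 and 0.0103 (edgeR). Npm1, a nucleolar protein of ribosome assembly, had a log2 FC of 0.71 ± 0.156, and Anp32b, a histone chaperone, one of 1.07 ± 0.246.

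The promoters of the DE genes were read to show what sequence lies at the start of the most clearly changed members. RefSeq sequence of the GRCr8 build, from 250 bases before to 50 after the start, was found for 23 of the 31 DE symbols looked up. The 3 shown belong to the 2 higher and the 1 lower gene with the smallest p among those matched, and are printed 5′ to 3′ on the gene's strand. Capitals mark matches, on either strand, to the antioxidant response element core TGACNNNGC, the NRF-1 core GCATGCGC, the GC box GGGCGG, the CCAAT box CCAAT, the E-box CACGTG and the cyclic AMP response element TGACGTCA, and in Sdf4 an E-box and an antioxidant response element core run into each other. In Ccdc47 the NRF-1 core was matched once on each strand, and these matches overlap.
Ccdc47, chr10:91648577-91648876, minus strand: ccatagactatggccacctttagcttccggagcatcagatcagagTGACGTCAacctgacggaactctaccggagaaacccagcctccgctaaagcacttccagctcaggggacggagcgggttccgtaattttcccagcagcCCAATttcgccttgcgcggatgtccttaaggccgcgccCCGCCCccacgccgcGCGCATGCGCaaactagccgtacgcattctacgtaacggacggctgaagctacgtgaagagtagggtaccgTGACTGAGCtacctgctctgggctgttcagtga
Sdf4, chr5:171868625-171868924, plus strand: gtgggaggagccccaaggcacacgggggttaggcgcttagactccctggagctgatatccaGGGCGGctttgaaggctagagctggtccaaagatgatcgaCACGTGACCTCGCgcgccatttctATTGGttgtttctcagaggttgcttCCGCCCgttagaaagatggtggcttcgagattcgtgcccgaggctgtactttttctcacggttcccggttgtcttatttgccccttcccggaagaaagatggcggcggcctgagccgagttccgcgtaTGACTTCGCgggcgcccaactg
Agap3, chr4:11617236-11617535, minus strand: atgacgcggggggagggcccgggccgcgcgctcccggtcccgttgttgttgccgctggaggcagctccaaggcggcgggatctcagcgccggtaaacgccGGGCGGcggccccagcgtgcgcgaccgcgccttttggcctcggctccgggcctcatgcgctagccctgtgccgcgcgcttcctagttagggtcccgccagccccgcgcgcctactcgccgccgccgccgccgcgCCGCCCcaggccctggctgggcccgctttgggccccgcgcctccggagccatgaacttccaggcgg

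The antioxidant response element core was found in 5 of the 19 higher DE promoters (26.3%) and in 0 of the 4 lower ones, against 12.1% of all 33469 promoters and 14.2% of the 1272 promoters of genes with a name. The NRF-1 core, bound by a regulator of nuclear genes for mitochondria, was present in 2 of the 19 higher promoters (10.5%), those of Ccdc47 and Npm1, against 2.47% of all promoters and 5.11% of those with a name. These letters replaced a longer form with a gap after its counts had been seen, and that form was present in a larger share of the same 3 sets. GC boxes were present in 68.4% of the higher DE promoters and in 62.1% of named promoters. CCAAT boxes were present in 21.1% and 37.3%, E-boxes in 15.8% and 8.33%, and cyclic AMP response elements in 5.26% and 2.83% of the same sets. These are counts of letters in few promoters, with no test, and do not show binding.

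The Nrf2 targets and thiol enzymes that could be matched showed no joint direction. Of 40 list symbols, 15 identifiers were tested and 0 were DE. The median log2 FC was 0.0175, with 8 positive and 7 negative. At an unadjusted p under 0.05, 5 were higher and 2 lower, where 8.61% of all genes passed. The 15 were named through the study's lists of DE genes, so all genes tested are not a like comparator. MT1, a metal-binding metallothionein, was at 9.01, 11.3 and 5.90 CPM without LA and at 13.7, 12.7 and 26.7 CPM with LA, without overlap (adjusted p = 0.154, edgeR). Gsta1, a glutathione transferase, was at 72.1, 90.5 and 70.6 CPM and at 91.1, 107.1 and 109.2 CPM, a log2 FC of 0.40 ± 0.118 (adjusted p = 0.163, edgeR). Mt3, the metallothionein of neurons and astrocytes, had a log2 FC of the other sign, -0.41 ± 0.124 (adjusted p = 0.197, edgeR), and Txnip, an inhibitor of thioredoxin, one of 0.36 ± 0.127. Near-identical copies make the metallothionein counts uncertain. Of 18 genes of the lipoate-dependent complexes only Amt, of the glycine cleavage system, could be matched, and its log2 FC was 0.04 ± 0.241.

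Among DE genes of neurons and synapses both directions were seen. Ppp1r9b, the spine scaffold spinophilin, was at 72.1, 50.7 and 71.4 CPM without LA and at 99.3, 117.1 and 104.1 CPM with LA (log2 FC 0.75 ± 0.125, adjusted p = 0.00118, edgeR). Git1, a scaffold of synapses and focal adhesions, was at 110.3, 67.2 and 88.8 CPM and at 135.0, 127.2 and 120.2 CPM. Its log2 FC was 0.55 ± 0.128 (adjusted p = 0.0454, edgeR). Atp1b1, the beta subunit of the sodium pump, rose from 768.8 ± 41.3 to 1002 ± 4.33 CPM (SD, n = 3; adjusted p = 0.0237, edgeR), and Stmn4, a neuronal regulator of microtubules, from 88.8 ± 9.73 to 122.1 ± 10.4 CPM (adjusted p = 0.0455, edgeR). Arpp19, an inhibitor of protein phosphatase 2A, has 2 identifiers in the files, with log2 FCs of 0.96 ± 0.187 and 0.97 ± 0.199. Near-identical sequence could split their reads.

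Nat8l, which makes the neuronal metabolite N-acetylaspartate, was lower with LA. Its pools were at 79.5, 72.03 and 102.2 CPM without LA and at 58.2, 46.9 and 50.3 CPM with LA (log2 FC -0.69 ± 0.133, adjusted p = 0.00681, edgeR). Agap3, a GTPase-activating protein of the endosome and synapse, was at 70.2, 77.5 and 64.4 CPM and at 42.3, 52.8 and 45.6 CPM (log2 FC -0.58 ± 0.128, adjusted p = 0.0283, edgeR). Dab2ip, a Ras GTPase-activating protein, fell by 0.51 ± 0.117 and Wdfy3, a large scaffold of selective autophagy, by 0.42 ± 0.0995 on the log2 scale. Both calls were near the threshold, with adjusted p of 0.0375 and 0.0479 (edgeR).

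Of the glutamate receptor and postsynaptic list, 12 genes were tested and 0 were DE. The median log2 FC was -0.0836, with 8 negative and 4 positive. The 3 genes with an unadjusted p under 0.05 were all lower, among them Shank1 with -0.55 ± 0.151 and Shank3 with -0.54 ± 0.199, which are scaffold proteins of the postsynaptic density. Their adjusted p-values were 0.113 and 0.363 (edgeR). Over all genes tested, 8.61% had an unadjusted p under 0.05. The 12 genes were named through the study's lists of DE genes, so this share is not a like comparator. Of the neuropeptide list, 9 identifiers were tested and 0 were DE, and Chgb, a granin of secretory granules, had the lowest p with a log2 FC of 0.24 ± 0.108 (adjusted p = 0.51, edgeR).

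Chromatin and RNA-processing genes included the lower gene with the smallest p among those named. Srrm2, a scaffold of nuclear speckles and splicing, was at 650.4, 582.3 and 586.5 CPM in the CR>AL pools and at 428.6, 425.4 and 436.7 CPM with LA. The LA pools lay within a narrow range, all below the CR>AL pools (log2 FC -0.48 ± 0.0878, adjusted p = 0.00319, edgeR). Mll2, a methyltransferase of histone H3 at enhancers, was at 102.8, 88.4 and 89.8 CPM and at 67.2, 52.8 and 70.3 CPM (log2 FC -0.56 ± 0.122, adjusted p = 0.0276, edgeR). Ddx3x, an RNA helicase of translation initiation, was higher, at 168.6, 159.9 and 160.7 CPM without LA and at 229.4, 218.8 and 273.7 CPM with LA (log2 FC 0.57 ± 0.100, adjusted p = 0.00208, edgeR). Hnrph1, a splicing regulator, was also higher, with a log2 FC of 0.50 ± 0.103, and Ccng2, a cyclin of growth arrest, with one of 0.67 ± 0.159.

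Neither of the histone modifier lists had a DE member. Of 18 symbols of histone acetyltransferases and their partners, 5 could be matched and were tested. All 5 had a positive log2 FC (median 0.20), against 49.8% of all genes tested. Only genes on the study's lists of DE genes could be matched, so all genes tested are not a like comparator. No direction of the list is drawn from these values. Brd1, a reader in acetyltransferase complexes, was at 42.6, 37.7 and 52.4 CPM without LA and at 58.2, 54.6 and 65.2 CPM with LA (log2 FC 0.43 ± 0.138, adjusted p = 0.249, edgeR), and Kat6a, an acetyltransferase of histone H3, had a log2 FC of 0.29 ± 0.135. Of the deacetylase list, 2 of 22 symbols had an identifier. Hdac5 had a log2 FC of -0.07 ± 0.193.

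Apart from Ppi2, which was not looked up, the study's text names 22 genes in connection with its dietary memory effect. All 22 were tested here. They were chosen by the study on these samples and others and are not independent evidence of a direction. The study chose them by comparing lists of genes DE against AL, not from CR>AL+LA versus CR>AL. The values here are therefore no test of that choice. None of the 22 was DE in CR>AL+LA versus CR>AL, 10 had a positive and 12 a negative log2 FC, and the median was -0.0301. At an unadjusted p under 0.05, Mef2c and Kat6a were higher and Camk1g and Chmp1a lower. Mef2c, a transcription factor of activity-dependent neuronal genes, was at 61.5, 67.0 and 59.3 CPM without LA and at 77.1, 70.2 and 80.5 CPM with LA (log2 FC 0.28 ± 0.117, adjusted p = 0.445, edgeR). Camk1g, a calcium/calmodulin-dependent kinase, was at 19.3, 16.8 and 26.7 CPM and at 16.5, 14.9 and 9.82 CPM (log2 FC -0.56 ± 0.221, adjusted p = 0.418, edgeR). The groups did not overlap for either gene, as was so for 13.8% of all genes.

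Ctss, the lysosomal cathepsin that trims the invariant chain in antigen-presenting cells, was at 204.4, 193.9 and 207.4 CPM without LA and at 281.0, 283.7 and 271.8 CPM with LA (log2 FC 0.48 ± 0.0917, adjusted p = 0.00651, edgeR). The list of antigen presentation and complement had 10 other genes tested and 0 DE. All 10 had a positive log2 FC (median 0.193, from 0.00277 to 0.566), against 49.8% of all genes tested, and pools were apart for 1 of them. Only genes on the study's lists of DE genes could be matched, so all genes tested are not a like comparator. Cd74, the invariant chain, was at 93.2, 54.6 and 45.7 CPM and at 90.0, 80.9 and 111.9 CPM, and the groups overlapped (adjusted p = 0.163, edgeR). RT1 genes share sequence, and their counts are uncertain.

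Further DE genes belonged to no list. Asrgl1, an enzyme that cleaves L-asparagine and isoaspartyl peptides, was at 42.6, 35.03 and 35.9 CPM without LA and at 61.5, 66.2 and 71.9 CPM with LA (log2 FC 0.83 ± 0.132, adjusted p = 0.000577, edgeR). Osbpl1a, an oxysterol-binding protein of late endosomes, rose from 146.4 ± 6.61 to 196.1 ± 11.7 CPM (SD, n = 3; adjusted p = 0.0343, edgeR). Epb4.1l2, a membrane skeleton protein, had a log2 FC of 0.47 ± 0.110.

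Lists of stimulus, clock and metabolic genes gave no calls. Of the immediate early genes 11 were tested (median log2 FC 0.159, and -0.109 without pool 28). Fosb was at 15.2, 12.6 and 13.1 CPM without LA and at 6.59, 9.67 and 9.03 CPM with LA (adjusted p = 0.368, edgeR). Btg2, an antiproliferative early gene, was high in single pools of both groups, at 41.8 CPM in pool 27 and 79.9 CPM in pool 28 against 12.8 to 15.6 CPM in the other 4. The circadian list had 8 genes tested (median -0.104), with Cry2, a clock repressor, at -0.25 ± 0.107 (adjusted p = 0.467, edgeR). Medians were 0.0382 for the 7 genes of sterol and fatty acid synthesis, -0.0276 for the 7 identifiers of the heat shock and unfolded protein list, -0.0768 for the 5 genes of insulin and mTOR signalling (0.0939 without pool 26 and 0.0857 without pool 29), and 0.13 for the 2 genes of the glucocorticoid and fasting list.

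**Figure D2:**
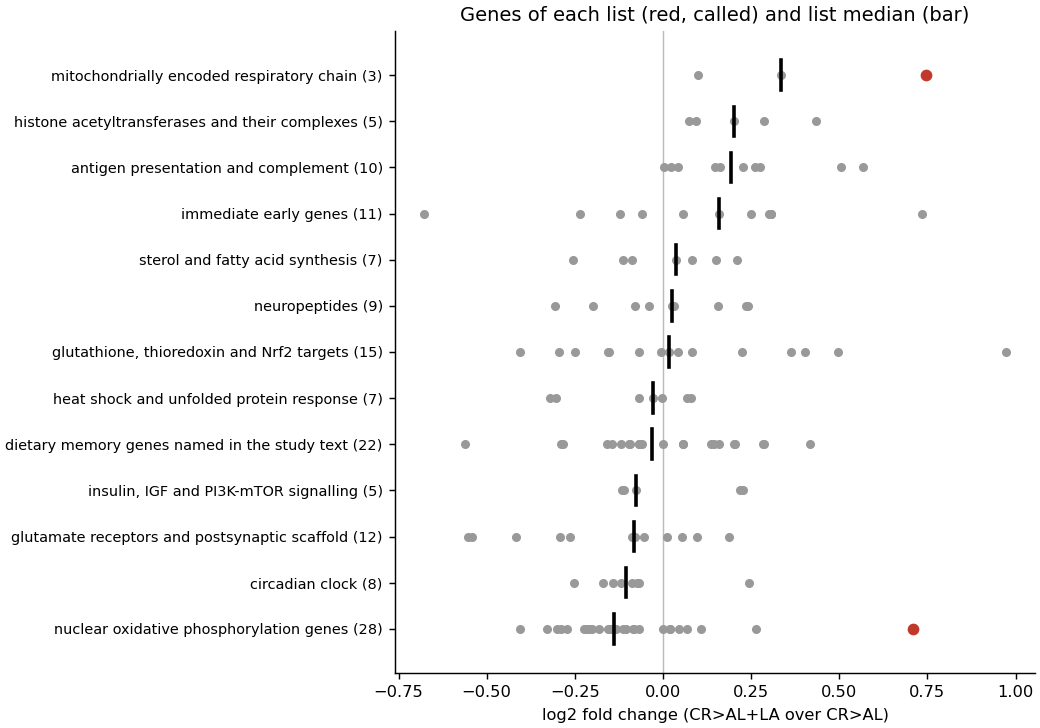
Log2 FC of CR>AL+LA over CR>AL for the tested identifiers of each list with at least 3 (number tested in brackets), with red points for DE genes and a black bar for the list median. ATP8 and Atp5c1 are the only red points. The other matched mitochondrially encoded genes lie between 0.10 and 0.33, and most matched nuclear oxidative phosphorylation genes lie below 0.

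Ribosomal RNA left after depletion also differed. Rn28s, the gene of 28S rRNA, and 6 unnamed identifiers followed one course over the 39 pools (r of at least 0.99 with Rn28s) and were all called higher, so these 7 calls are one measurement. Rn28s was at 22320, 15860 and 24270 CPM in the CR>AL pools and at 33350, 32050 and 34170 CPM with LA (log2 FC 0.69 ± 0.104, adjusted p = 0.00035, edgeR). The 7 identifiers took 6.73% to 9.60% of the reads on genes in CR>AL and 12.8% to 13.3% in CR>AL+LA, against 12.4% to 13.2% in CR, 1.42% to 2.84% in AL and 3.95% to 13.7% in AL+LA, where pools of one diet lay far apart. Without them, a setting chosen after seeing the data, 59 genes were DE, 42 higher and 17 lower, of which 58 were among the 74. AL+LA pool 34, the pool at 3.95%, was near CR>AL levels for Ccdc47 (99.8 CPM), Sdf4 (38.8 CPM) and Atp5c1 (49.4 CPM). It was above them for Npm1 (32.8 CPM). Over the 39 pools, r with Rn28s was 0.684 for Ccdc47, 0.64 for Sdf4, 0.42 for Atp5c1 and 0.603 for Npm1. The part of the depletion step or of the library in these differences was not tested.

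Some of the DE genes are themselves markers of neighbouring tissue. Dcn, the matrix protein decorin, was at 15.5, 16.8 and 11.6 CPM without LA and at 25.3, 41.2 and 29.9 CPM with LA (log2 FC 1.15 ± 0.199, adjusted p = 0.00178, edgeR). Slc6a20, an imino acid transporter, was at 27.6, 18.1 and 25.7 CPM and at 33.2, 47.6 and 47.1 CPM (log2 FC 0.86 ± 0.175, adjusted p = 0.0118, edgeR). Both stand on the list of markers for mural cells and meninges, which had 3 of its 10 symbols matched. The sum over these 3 was 50.6 to 60.3 CPM in CR>AL and 73.0 to 103.2 CPM in CR>AL+LA. Dcn and Slc6a20 carried this rise, so the sum is not separate from their calls. The third, Tagln of smooth muscle, had a log2 FC of -0.15. None of the 3 was at 0.

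Prkcd, a protein kinase C isoform that is abundant in thalamus, was the only named DE gene whose pools overlapped. It was at 23.3, 47.2 and 43.9 CPM without LA and at 24.97, 17.4 and 21.6 CPM with LA (log2 FC -0.85 ± 0.201, adjusted p = 0.0477, edgeR), so pool 25 lay within the LA range. The 4 thalamus markers, Prkcd among them, summed to 101.9, 163.9 and 119.9 CPM and to 107.6, 90.5 and 101.7 CPM. Of these, Tcf7l2 was at 9.63, 24.6 and 13.9 CPM and at 7.96, 8.43 and 11.0 CPM (log2 FC -0.85 ± 0.278, adjusted p = 0.27, edgeR). Plekhg1 and Lhx2 had log2 FCs of -0.21 and -0.005. Slc17a6, the vesicular glutamate transporter of thalamic neurons and on the list for excitatory neurons, was at 30.8, 53.3 and 66.2 CPM and at 36.5, 24.6 and 25.9 CPM (adjusted p = 0.0609, edgeR). Gabra6, a receptor subunit of cerebellar granule cells, was at 28.5 CPM in pool 28 against 0 to 2.57 CPM in the other 5 pools, and the 6 cerebellum markers summed to 140.2 CPM there against 65.2 to 76.2 CPM elsewhere. Without pool 28, 72 genes were DE, 53 of them among the 74. The part of dissection in these differences was not tested, and in bulk tissue fewer cells of a type and less RNA per cell cannot be told apart.

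Markers of the cortex itself were present in all pools. The 3 astrocyte markers summed to 1419 to 1518 CPM without LA and 1266 to 1588 CPM with LA, and the 4 interneuron markers to 337.8 to 364.7 and 326.7 to 358.5 CPM. The 3 excitatory neuron markers summed to 84.8 to 136.4 and 96.5 to 111.5 CPM, and the 3 microglia markers to 48.7 to 57.2 and 52.2 to 57.4 CPM. The groups overlapped for each of these lists. Mog, the one oligodendrocyte marker matched, was at 145.0 to 175.0 and 126.5 to 146.0 CPM, and Slc2a1, the one endothelial marker, at 95.2 to 104.9 and 80.95 to 90.5 CPM. Aqp1 of choroid plexus was at 5.59 to 11.1 and 7.94 to 20.0 CPM, and 2 haemoglobin identifiers summed to 195.8 to 288.5 and 237.2 to 356.9 CPM.

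**Figure D3:**
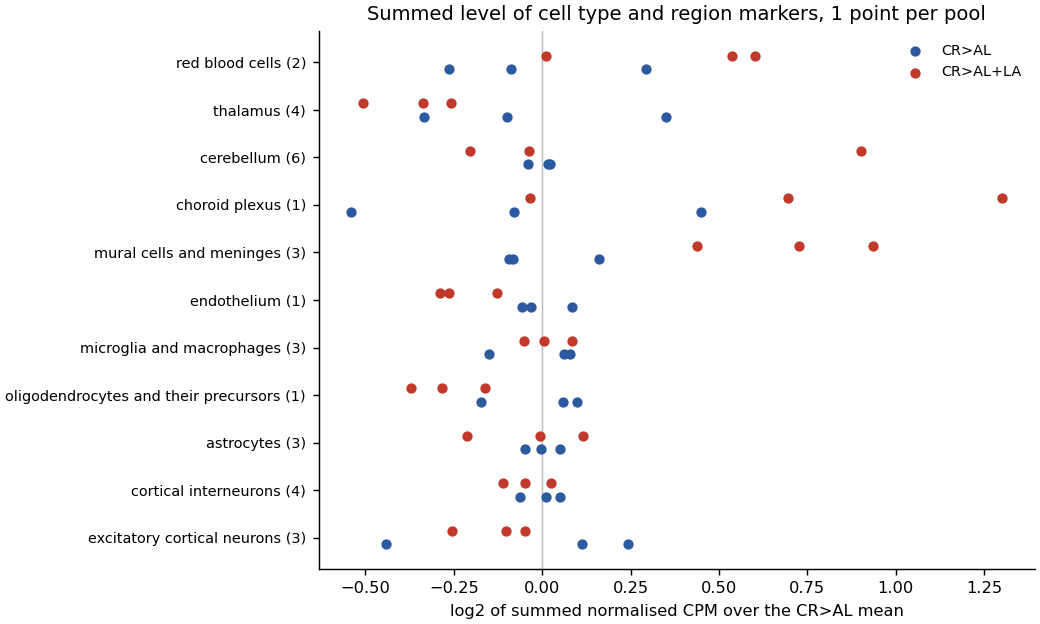
Summed level of each marker list per pool, as the log2 of its ratio to the CR>AL mean, with blue points for the CR>AL pools, red points for the CR>AL+LA pools and the number of identifiers in brackets. The mural cell and meninges sum, which holds the DE genes Dcn and Slc6a20, lies higher in all 3 CR>AL+LA pools. The cerebellum sum is high in 1 CR>AL+LA pool (140.2 CPM), and the thalamus sums overlap between the groups.

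The levels in pools never switched to free feeding place the DE genes between diets. The CR mean lay on the CR>AL+LA side of the midpoint between the refed groups for 52 of the 74 DE genes (70.3%), against 49.2% of all genes tested, and for 45 of the 67 DE genes other than the rRNA-like identifiers. This held for 43 of the 56 higher and 9 of the 18 lower genes. The AL mean lay on that side for 39 of the 74 (52.7%), against 50.6% of all genes. Ccdc47 was at 149.0 ± 1.82 CPM in CR, 152.0 ± 5.66 in CR>AL+LA and 93.1 ± 7.87 in CR>AL (SD, n = 3). Sdf4 was at 55.9 ± 2.70 CPM in CR and 55.0 ± 3.76 in AL, both above CR>AL (36.4 ± 2.35) and below CR>AL+LA (64.8 ± 2.46). Asrgl1 was at 58.7 ± 2.43 CPM in CR and 39.01 ± 3.54 in AL, beside 66.5 ± 5.21 with and 37.8 ± 4.11 without LA after the switch. Srrm2 was at 450.5 ± 79.7 CPM in CR and 427.7 ± 60.1 in AL, near the 430.2 ± 5.82 of CR>AL+LA. The rRNA-like share of reads was also alike in CR (12.4% to 13.2%) and CR>AL+LA (12.8% to 13.3%). It was 6.73% to 9.60% in CR>AL and 1.42% to 2.84% in AL. Over the 39 pools, r with Rn28s was 0.684 for Ccdc47, 0.64 for Sdf4, 0.745 for Asrgl1 and -0.21 for Srrm2. Neither these placements nor the part of the library in them was tested.

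**Figure D4:**
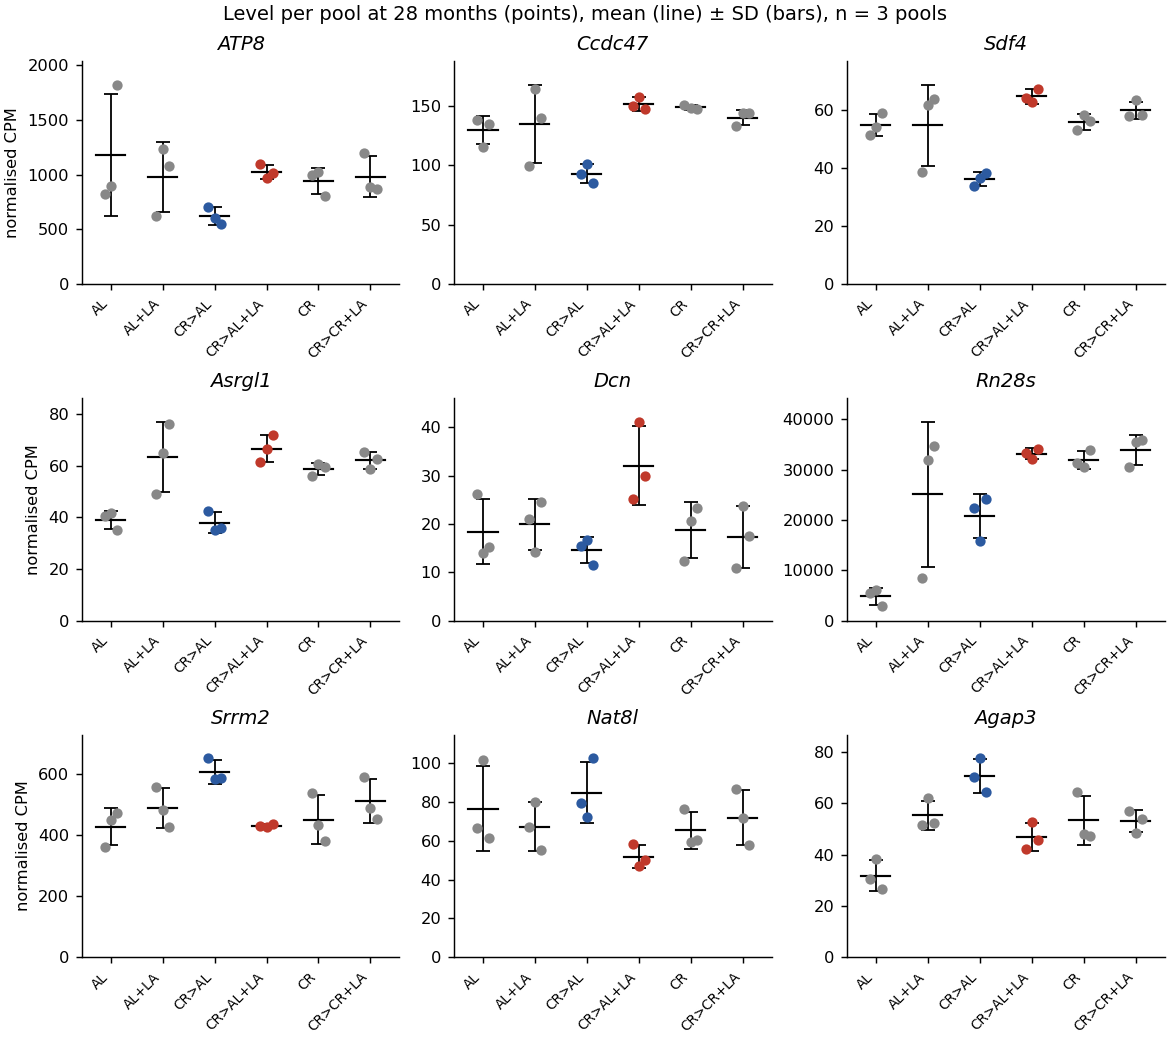
Normalized CPM of 9 DE genes in every pool of 6 diets at 28 months (points), with the mean (line) and SD (bars) of 3 pools, CR>AL in blue and CR>AL+LA in red. For Sdf4 the 3 CR>AL pools, at 33.9 to 38.5 CPM, lie below all other pools shown, but only just below AL+LA pool 34 at 38.8 CPM. Rn28s and ATP8 vary widely in the AL and AL+LA pools.

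LA given under other feeding histories was measured in separate pools. In rats fed AL from the start, 831 genes were DE between AL+LA and AL (4.82%), 528 higher and 303 lower with LA, and leaving out any one of these 6 pools moved the count by over 1.5 times, to between 351 and 1467. In restricted rats 0 genes were DE between CR>CR+LA and CR (0%) by edgeR's quasi-likelihood test, with 501 at an unadjusted p under 0.05, and 24 were DE when genes of low counts were kept. Of the 74 genes DE after refeeding, 49 had the same sign in AL+LA versus AL (66.2%, against 49.2% of all genes tested) and 46 in CR>CR+LA versus CR (62.2%, against 49.6%). Of the 67 other than the rRNA-like identifiers, 42 and 39 had the same sign in that order. Of the 74, 20 were also DE in AL+LA versus AL, 16 of these with the same sign, and 7 of the 16 were the rRNA-like identifiers. Sars, Epb4.1l2 and 1 identifier of Arpp19 rose in both comparisons, as did Asrgl1 (log2 FC 0.70 ± 0.168 in AL+LA over AL), Npm1 (0.74 ± 0.176), Osbpl1a (0.76 ± 0.151) and Atp1b1 (0.53 ± 0.139), and Prkcd fell in both (-1.16 ± 0.294 in AL+LA over AL). Agap3 and Ccng2 were DE with the opposite sign there, with log2 FCs of 0.80 ± 0.167 and -1.27 ± 0.274.

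The difference between these LA effects was tested as an interaction over 12 pools. Each such test holds the CR>AL and CR>AL+LA pools on which the 74 were called. Overlap with the 74 is therefore built in to a degree and adds no support to them. Against the LA effect under AL feeding, 457 genes differed (2.65%), 24 of them among the 74. The count lay between 246 and 286 without AL pool 9, AL+LA pool 35 or any of pools 26, 28, 29 and 30, and was 1013 without AL pool 8. Atp5c1, Ddx3x, Hnrph1, Ppp1r9b and Sdf4 had more positive LA effects after refeeding, with interaction log2 values of 1.21 ± 0.205, 1.02 ± 0.181, 0.99 ± 0.206, 1.08 ± 0.240 and 0.84 ± 0.219 in that order (adjusted p between 0.0015 and 0.0366, edgeR). Against the LA effect under restriction, 4 genes differed (0.0232%). These were Ccdc47 (0.81 ± 0.137), ENSRNOG00000031766 (0.80 ± 0.139), ENSRNOG00000049138 (-1.71 ± 0.273) and ENSRNOG00000046170 (-1.69 ± 0.290), each with an adjusted p of 0.0255 (edgeR). In 11 of the 12 fits that left out 1 pool between 0 and 3 genes passed, and 6 passed without CR pool 16.

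**Figure D5:**
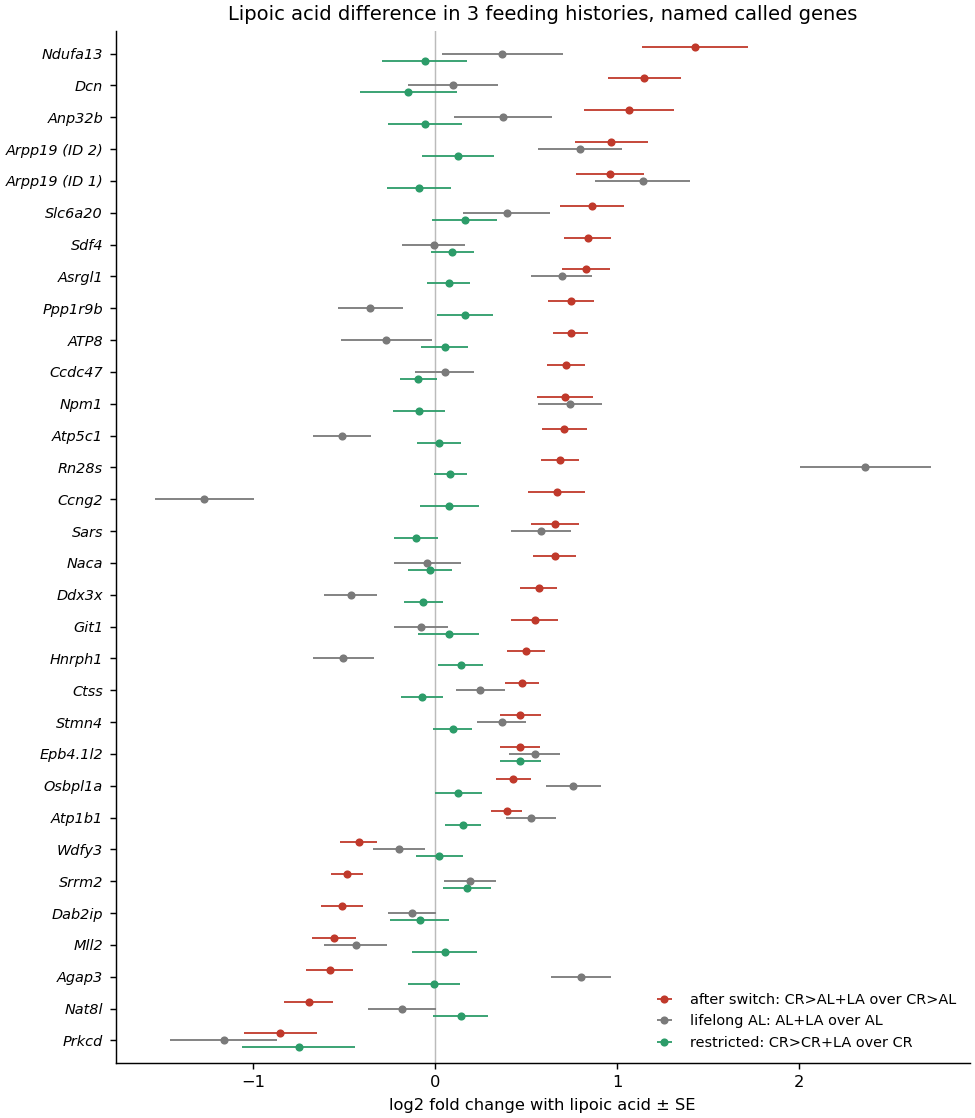
Log2 FC with LA (point) and its SE (bar) for 32 of the named DE identifiers after the switch from CR to free feeding (red), under lifelong AL feeding (grey) and under restriction (green). The restriction values lie near 0 for most genes, with exceptions such as Prkcd and Epb4.1l2, and the AL values lie on both sides of 0.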

How the data were processed

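Counts were made by the authors, who sequenced rRNA-depleted RNA on a SOLiD instrument, aligned reads with Bowtie to Rnor_5.0 without multiply mapping reads, and counted them per Ensembl gene with HTSeq. Genes with near-identical copies are therefore undercounted. The deposited values are raw counts per gene without normalization, and 5 closing lines of reads on no gene were left out.

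The filter asked for 1 CPM or more in 3 or more of the 39 libraries, which left 17230 of 26123 genes. Groups were compared in R 4.3.3 with edgeR 4.0.16 (TMM scaling, glmQLFit and glmQLFTest, Benjamini-Hochberg adjustment over all genes tested), using the libraries of the groups compared. The fit was checked on simulated counts. SE is the log2 FC divided by the square root of F. CPM values use TMM over all 39 libraries. Also run were DESeq2 1.42.0, the exact test of edgeR, RLE scaling, other filters, all 13 groups in one fit, and each pool left out.

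Named genes are the DE genes with a symbol, at most 12 per direction first, filled with the next smallest p among genes with pools apart, plus at most 4 others per list. Groups, lists and rules were chosen with earlier results of these data known. Names came from the study's supplementary lists. Some genes are not reported here.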

Additional observations from a re-analysis of the deposited data

Results flagged for a closer look

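The effect of LA differed between feeding histories for the genes listed here, by the interaction term of edgeR's quasi-likelihood test with an adjusted p under 0.05. Each value is the log2 FC with LA after the switch from CR minus the log2 FC with LA in the other history.

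Against lifelong AL feeding, 457 genes differed. This test holds the pools on which genes were called DE after refeeding, so its values for those genes add no support to the calls. Among named genes DE after refeeding, values were 0.835 for Sdf4, 1.08 for Ppp1r9b, 1.21 for Atp5c1, 1.02 for Ddx3x, 0.988 for Hnrph1 and 1.92 for Ccng2, and on the negative side -1.70 for Rn28s, -0.69 for Srrm2 and -1.40 for Agap3. Genes not DE after refeeding also differed, with -2.10 for Runx2, a transcription factor of bone and other tissues, -0.83 for Fkbp8, an anti-apoptotic protein of the outer mitochondrial membrane, and -1.47 for RT1-Ba, a class II antigen of the rat. Chromatin and signalling genes gave 0.748 for Kat6a, 0.955 for Brd1 and 1.39 for Pik3r3, a regulatory subunit of PI3-kinase. Metabolic genes gave -0.967 for Mt3, -1.72 for Atp5i, -0.943 for Ndufv1 and -1.08 for Cox8a. The AL pools had 27.5% to 33.2% of their reads not aligned, against 37.99% to 41.3% in the other 9 pools of this test, so LA and library cannot be told apart on the AL side.

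Against restriction, 4 genes differed, and Ccdc47 was the one with a name, with a value of 0.806. No group had more than 3 pools, so single pools were not tested as outliers.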

How the results depend on the processing

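The count of 74 genes was 105 with edgeR's exact test, 81 with DESeq2, 74 with RLE scaling, 86 with at least 10 counts in every library, 60 with the 1 CPM filter applied to the 6 libraries, and 59 without the rRNA-like identifiers. All 13 groups in one fit gave 2, and the cause was not tested. Keeping genes of low counts gave 164 genes for CR>AL+LA versus CR>AL, 1398 for AL+LA versus AL, 24 for CR>CR+LA versus CR, 819 for the interaction with AL feeding and 47 for that with restriction. Leaving out 1 pool gave 43 to 78, 351 to 1467, 0 to 1, 246 to 1013 and 0 to 6 genes in the same order. The 74 genes kept their sign in every alternative in which they were tested, and 26 kept their call in all 6 fits that left out a pool, 9 of them among the genes named here. The share of higher calls was 75.7% with RLE scaling, 65.2% without a filter, 63.2% without pool 29 and 60.3% without pool 26.

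Genes whose sign turned when a pool was left out had no call, and their log2 FC in those 6 fits ranged from -0.067 to 0.018 for Atf4, -0.042 to 0.25 for Crebbp, -0.24 to 0.15 for Hdac5, -0.60 to 1.54 for Btg2, -0.33 to 0.094 for Igfbp4, -0.22 to 0.014 for Eif4ebp2, -0.14 to 0.24 for Amt and -0.039 to 0.33 for Vip. No paired analysis was possible because pool numbers are not shared between groups. Depth limits genes of low expression most in pool 30, with 2754552 reads on genes. Lists could be matched only to genes the study had named, so most list members were not examined.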
